A study of Mus musculus with 6 samples.

Results

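The 10 genes described here encode the core of the Notch pathway in the mouse uterus: the receptors Notch1, Notch2, Notch3 and Notch4, the ligands Jag1, Jag2, Dll1 and Dll4, and the target genes Hes1 and Hey1. They were chosen by name, as pathway genes with known roles in decidualization and in repression of the progesterone receptor gene, and not by a threshold on their values, although earlier results of these data were known when they were chosen. All 10 matched a gene identifier among the 56748 in the tables, and all 10 had enough counts to be tested, as did 16737 genes in all. Uteri were taken at 1600 h on pregnancy day 4, just before implantation, and the tissue is called uterus in the sample labels and endometrium in the series design. One group of 3 libraries was labelled as control with a WT genotype, and the other group of 3 was labelled Zip10 conditional knockout (cKO). That label stands for removal of the zinc importer gene Slc39a10 in the uterus, which was not checked here. The labels used here name no Cre driver, strain, age or deleted exon, and do not say that each library came from a separate animal, so a p-value here speaks only to the scatter among these libraries.

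Notch receptors are single-pass membrane proteins that bind Jagged or Delta-like ligands on a neighbouring cell. Binding lets ADAM10 and then the gamma-secretase complex cut the receptor, and the freed intracellular domain joins the DNA-binding protein RBPJ and a Mastermind coactivator to switch on genes such as Hes1 and Hey1. In the pregnant mouse uterus, Notch1 is known for its part in decidualization, the change of stromal cells at implantation, and forced Notch1 activity is known to silence the progesterone receptor gene Pgr. In blood vessels, Dll4 and Notch4 are typical of endothelium and Notch3 of the mural cells around it.

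Total counts ranged from 19643069 to 22809574 per library. All 6 uterine markers fixed for this check (Hoxa10, Hoxa11, Emx2, Pgr, Esr1 and Hand2) were present in every library. Slc39a10 stood at 54.6, 70.4 and 66.2 CPM (a count scaled to library size) in controls 1, 2 and 3, and at 39.5, 72.5 and 79.8 CPM in the cKO ones 1 to 3, so the groups overlapped. Its gene total also counts exons that a deletion leaves in place and does not check the genotype labels; directions below are those of the libraries labelled Zip10 cKO. cKO library 1 stood apart, with 3.43% of its counts from mitochondrial genes against 4.50% to 4.84% in the other 5, and values without it are given for each Notch gene that was lowest there. Summed over fixed marker lists, stromal genes reached 2867 to 3975 TPM (a level scaled by gene length) in controls and 4610 to 5573 TPM in cKO libraries, and smooth muscle genes 4722 to 8858 and 7965 to 12145 TPM. In bulk tissue, fewer cells of a type and less RNA per cell cannot be told apart.

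By edgeR's quasi-likelihood test, none of the 10 Notch genes had an adjusted p under 0.05, where 0.0% of all tested genes did, and none passed in DESeq2 or limma-voom. At an unadjusted p under 0.05 there was 1 of 10, Notch2, where 4.48% of all tested genes were higher and 1.98% lower. Their log2 fold changes of cKO over control ran from -0.29 for Dll1 to 0.32 for Notch2, with a median of -0.07 against 0.00 over all genes tested. For 2 genes, Notch2 and Hey1, the log2 fold change was above 0, and for 8 it was below. The 3 cKO libraries lay entirely above the 3 controls for 1 gene, Notch2 (1 of 10), where 6.93% of all tested genes did so, and entirely below for none, where 5.78% of all tested genes did so.

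**Figure D1:**
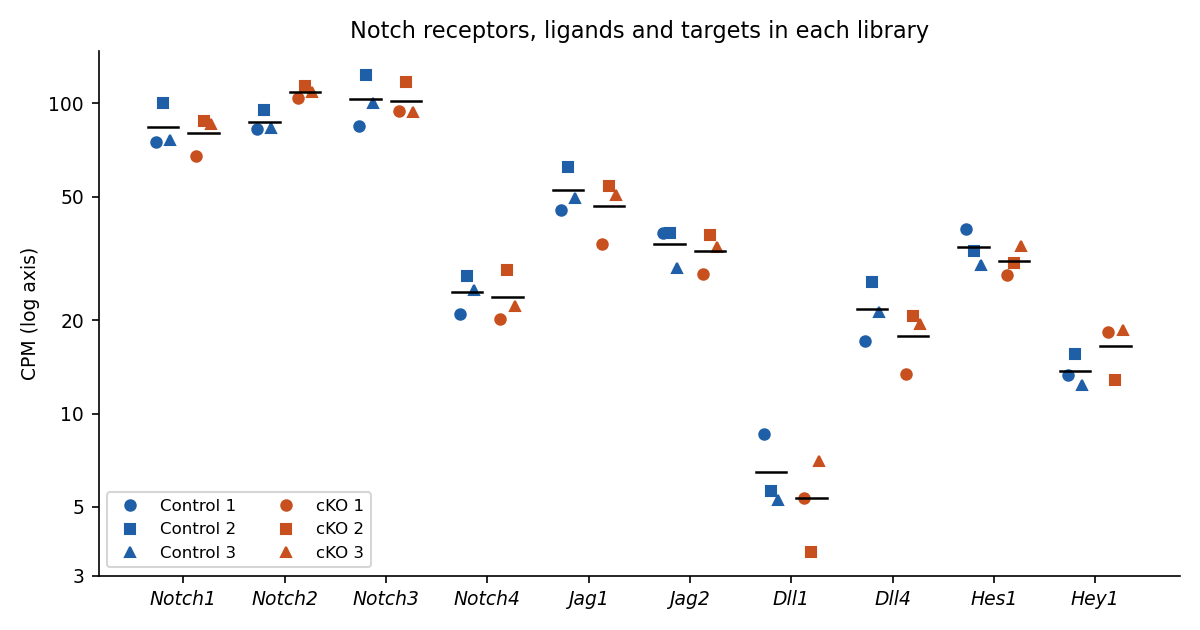
CPM on a log axis for the 10 Notch genes in each of the 6 libraries, controls in blue and cKO libraries in orange, with the marker shape giving the replicate number and a black line at each group mean. The cKO values of Notch2 (104 to 114 CPM) lie above its control values (82.6 to 95.01 CPM), and the groups overlap for the other 9 genes.

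Notch2, a receptor made in many cell types, was the 1 member whose groups did not overlap. Its level was 82.6, 95.01 and 83.3 CPM in controls 1, 2 and 3, and 104, 114 and 109 CPM in the cKO ones 1 to 3. Every cKO library was above every control, and the cKO libraries lay closer together than the controls. The means were 87.0 ± 6.99 and 109 ± 4.71 CPM (n = 3 each, SD), a fold of 1.25 with a 95% interval from 1.07 to 1.46. edgeR's quasi-likelihood test gave an unadjusted p of 0.00955 and an adjusted p of 0.747, so the difference did not pass. Permuting the CPM values over the 6 libraries (exact, two-sided) gave p = 0.1, the smallest that 3 against 3 can reach. The unadjusted p was under 0.05 in 17 of 18 alternative analyses. These reuse the same libraries, so they are not independent of the main one, and how many other genes did so was not counted. In the main analysis, 4.48% of all genes were higher at that level.

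Transcript length is given beside this difference, and whether it had a part in it was not tested. At 10500 bases in 5 of the 6 libraries, Notch2 has the longest transcript of the 10 genes, and genes in general differed by length: the shortest quintile of tested genes had a median of -0.11 (log2) and the longest one of 0.11. In that longest quintile, 16.1% of genes had all cKO libraries above all controls. After a smooth trend of each library on gene length was removed, the log2 fold change of Notch2 went from 0.32 to 0.11 (edgeR quasi-likelihood unadjusted p = 0.238 and adjusted p = 0.873). This was the 1 alternative of 18 in which its unadjusted p was above 0.05. Notch1, Notch3, Notch4 and Jag1 are in the same longest quintile and had log2 fold changes of -0.06, -0.02, -0.04 and -0.17 before the trend was removed and -0.24, -0.17, -0.15 and -0.27 after.

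**Figure D2:**
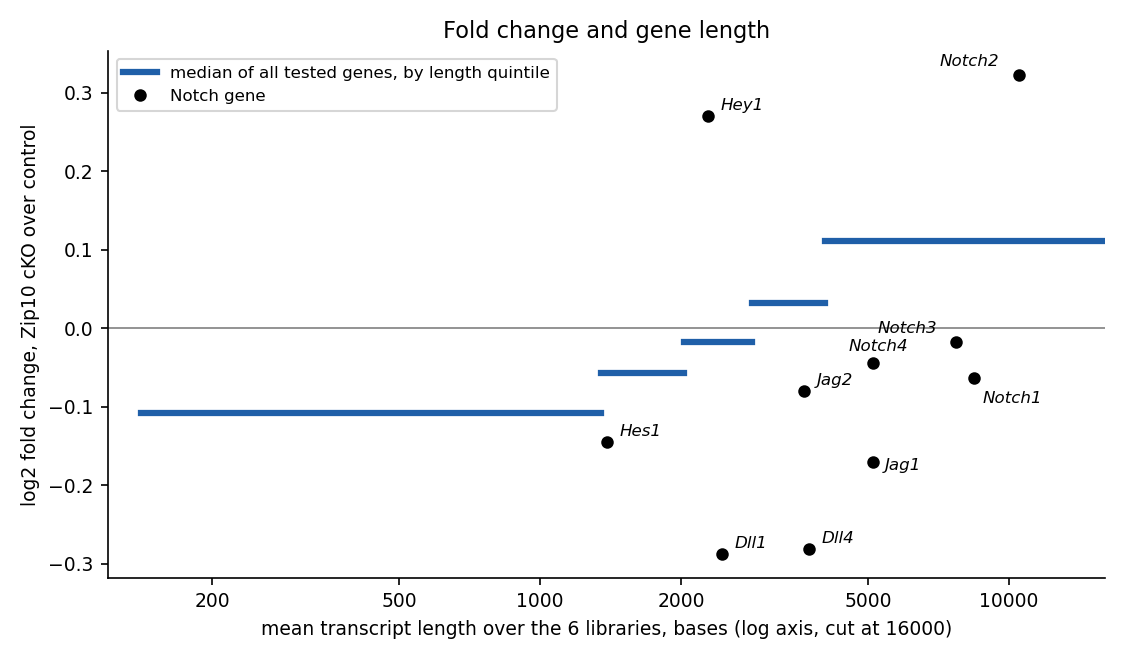
Log2 fold change of cKO over control against mean transcript length in bases on a log axis, with 1 black point for each Notch gene and blue bars for the median of all tested genes in each quintile by length. The bars go from -0.11 in the shortest quintile to 0.11 in the longest, and Notch2 at 0.32 and Hey1 at 0.27 are the points above all of them.

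The bases before the start of a gene are where promoter factors bind, and the RefSeq table (build GRCm38.p6, used for sequence and not for the counts, which were made on GRCm39) holds them for 8 of the 10 genes, with no entry for Hes1 or Hey1. The 250 bases before the start are shown for Notch2, the member whose groups did not overlap, and for Notch4, its counterpart with the fewest CpG pairs. Capitals mark each CpG. Dll1 is shown for its 1 match to AGAACA, the half-site of steroid hormone receptors such as the progesterone receptor, which capitals mark on the opposite strand.
Notch2, chr3:98013288-98013537, strand +: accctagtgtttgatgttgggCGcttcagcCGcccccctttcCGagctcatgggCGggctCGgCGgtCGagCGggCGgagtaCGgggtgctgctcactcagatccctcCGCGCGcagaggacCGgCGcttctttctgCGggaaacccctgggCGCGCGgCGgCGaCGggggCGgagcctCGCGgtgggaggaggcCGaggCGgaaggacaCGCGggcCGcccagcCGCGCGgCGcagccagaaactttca
Notch4, chr17:34564045-34564294, strand +: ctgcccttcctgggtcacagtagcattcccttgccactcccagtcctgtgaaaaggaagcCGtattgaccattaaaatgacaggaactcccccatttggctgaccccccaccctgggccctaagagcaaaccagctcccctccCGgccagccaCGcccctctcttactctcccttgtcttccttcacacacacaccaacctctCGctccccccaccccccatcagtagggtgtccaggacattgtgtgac
Dll1, chr17:15375824-15376073, strand -: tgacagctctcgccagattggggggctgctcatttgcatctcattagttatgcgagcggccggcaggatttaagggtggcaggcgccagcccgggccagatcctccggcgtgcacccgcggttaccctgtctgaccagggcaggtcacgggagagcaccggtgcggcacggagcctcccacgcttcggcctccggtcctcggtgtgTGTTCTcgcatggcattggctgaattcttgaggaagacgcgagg
The stretch of Notch2 holds 34 CpG pairs and that of Notch4 holds 4, while the median over all 32851 promoters of the table is 6. Jag2 holds more than Notch2, at 54. The stretch of Dll1 shown here holds 21, and those of Jag1, Notch3, Notch1 and Dll4 hold 20, 17, 16 and 14. On both strands, AGAACA occurred in 16.1% of all promoters over the same length. GTGGGAA, bound by RBPJ, occurred in 5.42% of them and CACGTG, the E-box that HEY proteins can bind, in 6.02%, and neither occurred in this stretch of any of the 8 members. These are matches of letters in a short window, with no binding data in the series.

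Notch1, the receptor with the known role in decidualization, was at 75.3, 100.5 and 76.3 CPM in the control libraries and 67.8, 87.6 and 85.8 CPM in the cKO ones. The groups overlapped, with the highest value in control 2 and the lowest in cKO library 1. Its means were 84.0 ± 14.3 and 80.4 ± 10.9 CPM (SD, n = 3 each), a fold of 0.957 with a 95% interval from 0.758 to 1.21 (edgeR quasi-likelihood adjusted p = 0.930). Without cKO library 1 its log2 fold change went from -0.06 to 0.04.

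Notch3, typical of mural cells, was at 84.5, 124 and 101 CPM in the control libraries and 94.3, 117 and 93.9 CPM in the cKO ones. Both libraries numbered 2 were the highest of their group. The fold was 0.988, with a 95% interval from 0.773 to 1.26 (edgeR quasi-likelihood adjusted p = 0.988). Notch4, typical of endothelium, was at 21.0, 27.8 and 24.9 CPM in the control libraries and 20.1, 29.1 and 22.3 CPM in the cKO ones, a fold of 0.970 with an interval from 0.741 to 1.27. Here too, the libraries numbered 2 were the highest of each group and those numbered 1 the lowest, and without cKO library 1 the log2 fold change of Notch4 went from -0.04 to 0.06. Beside these receptors, the mural cell list of 8 genes summed to 392 to 473 TPM in controls and 460 to 501 TPM in cKO libraries, and the endothelial list of 12 genes to 777 to 916 and 665 to 806 TPM.

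Per length, the 4 receptors summed to 38.0, 57.1 and 46.1 TPM in controls 1 to 3 and 46.3, 55.9 and 52.0 TPM in cKO libraries 1 to 3. Notch3 took the largest share in every library, from 32.0% to 37.6%, and Notch4 the smallest, from 11.3% to 14.7%. The share of Notch2 was 25.1%, 21.1% and 22.4% in controls and 29.6%, 25.1% and 27.0% in cKO libraries. Control 1 and cKO library 2 were nearly equal at 25.1%, so the shares overlapped (exact permutation p = 0.2, two-sided, n = 3 each). Notch1 took 26.6% to 28.6% in controls and 21.9% to 29.3% in cKO libraries.

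**Figure D3:**
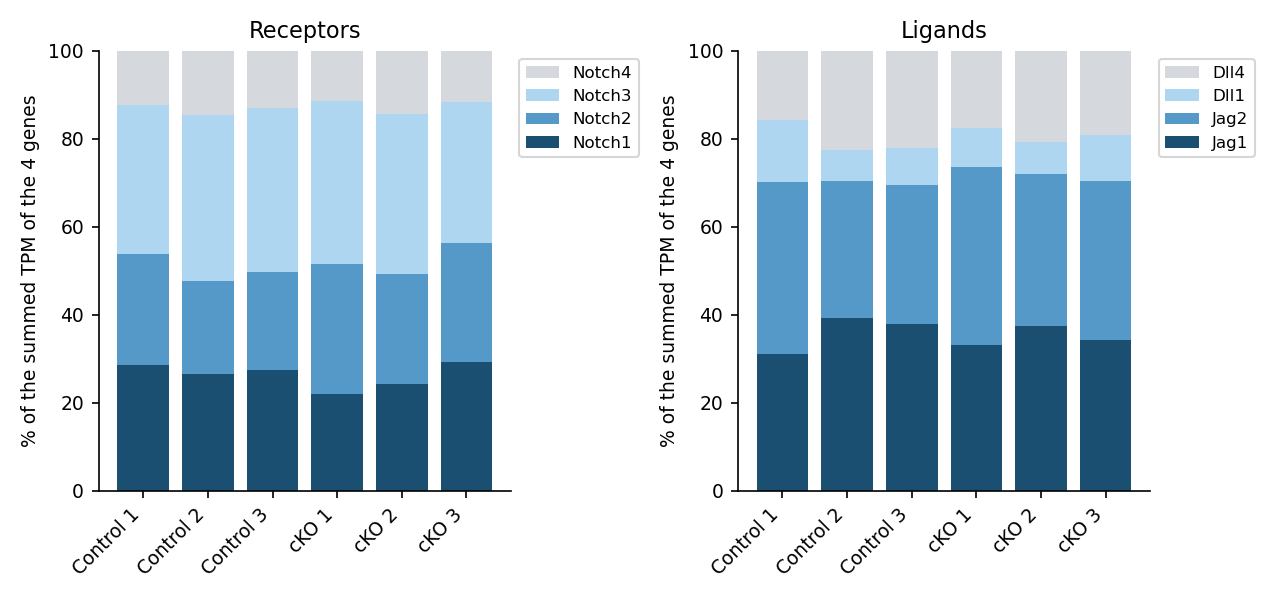
Stacked bars of each gene's percent of the summed TPM of the 4 receptors (left) and the 4 ligands (right), 1 bar per library. Notch3 is the largest receptor share in every library, and Jag1 and Jag2 together outweigh Dll1 and Dll4 in every library.

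All 4 ligands had log2 fold changes below 0, from -0.29 to -0.08 with a median of -0.23, none passed, and the groups overlapped for each. Over all tested genes, 49.4% had a log2 fold change above 0. Jag1, the ligand of many epithelia and vessels, was at 45.2, 62.3 and 49.6 CPM in the control libraries and 35.2, 54.0 and 50.5 CPM in the cKO ones. Its log2 fold change was -0.17 ± 0.18 (SE; edgeR quasi-likelihood adjusted p = 0.845), and without cKO library 1, the lowest of the 6, it was -0.0045. Jag2, its close relative, was at 38.2, 38.2 and 29.4 CPM in the control libraries and 28.1, 37.7 and 34.3 CPM in the cKO ones, a log2 fold change of -0.08 ± 0.15 (SE), which was 0.03 without cKO library 1.

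Dll4, the ligand of arterial and sprouting endothelium, was at 17.1, 26.6 and 21.3 CPM in the control libraries and 13.5, 20.6 and 19.4 CPM in the cKO ones. cKO library 1 was again the lowest, and control 2 the highest. The log2 fold change was -0.28 ± 0.21 (SE; edgeR quasi-likelihood adjusted p = 0.784), and -0.11 without cKO library 1 or without control 2. All 12 endothelial markers had log2 fold changes below 0, with a median of -0.19, and 2 of them had cKO libraries entirely below controls, as did 5.78% of all tested genes. Their part in the values of Dll4 was not tested.

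Dll1, a Delta-like ligand best known from somite patterning and the least abundant of the 10 genes, was at 8.57, 5.63 and 5.24 CPM in the control libraries and 5.32, 3.59 and 7.05 CPM in the cKO ones. With 78 to 195 counts per library it also had the widest interval, a fold of 0.820 with a 95% range from 0.513 to 1.31 (edgeR quasi-likelihood adjusted p = 0.838). Its log2 fold change went from -0.29 to -0.04 without control 1 and to -0.07 without cKO library 2, and to -0.54 without cKO library 3. The other 9 genes had at least 261 counts in every library.

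**Figure D4:**
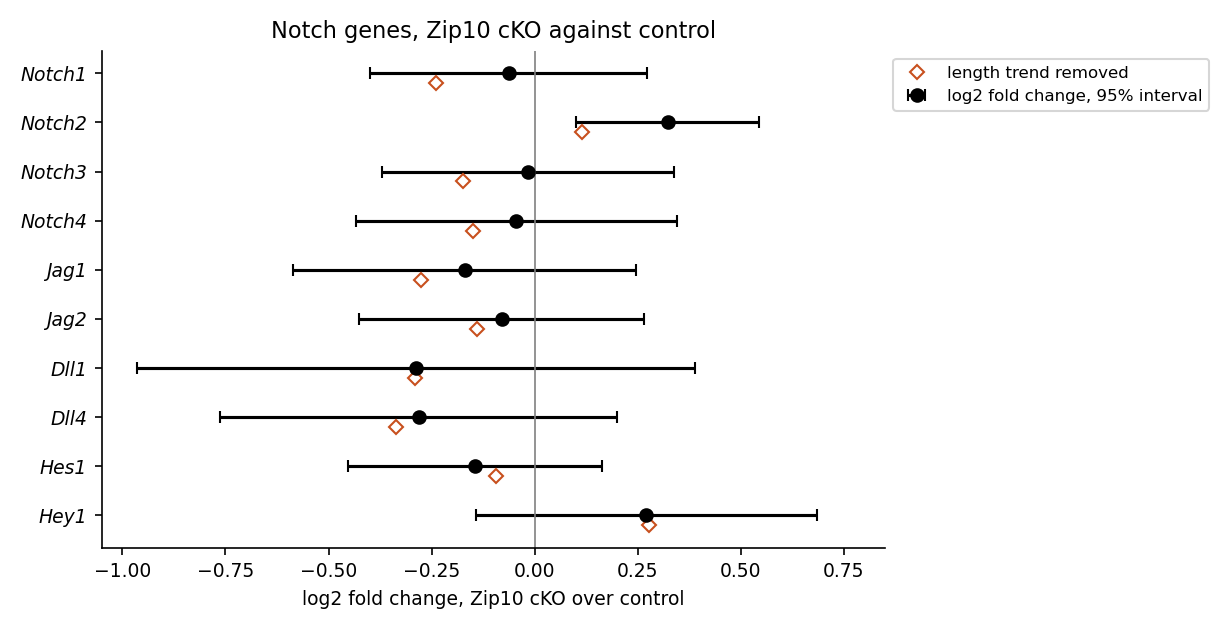
Log2 fold change of cKO over control for each Notch gene, with its 95% interval (black) and the value after a trend on gene length was removed (orange diamonds). The interval of Notch2 is the 1 of 10 that leaves out 0, and its diamond lies at 0.11.

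The target genes did not share a direction. Hes1, a repressor of the basic helix-loop-helix class that Notch induces in many tissues, was at 39.2, 33.5 and 30.2 CPM in the control libraries and 27.9, 30.6 and 34.6 CPM in the cKO ones. The groups overlapped, and the log2 fold change was -0.14 ± 0.14 (SE; edgeR quasi-likelihood adjusted p = 0.819), -0.08 without cKO library 1 and -0.04 without control 1. Hey1, a related repressor prominent in vessels, was at 13.3, 15.6 and 12.3 CPM in the control libraries and 18.3, 12.8 and 18.5 CPM in the cKO ones. For Hey1, cKO libraries 1 and 3 were above all controls and cKO library 2 was below control 1 and control 2. Its log2 fold change was 0.27 ± 0.18 (SE; edgeR quasi-likelihood adjusted p = 0.765), 0.42 without cKO library 2 and 0.18 without cKO library 3.

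Compared per length, Hes1 was the most abundant of the 10 genes, at 31.9 to 40.9 TPM, and its range overlapped that of no other member. Notch3 followed at 12.9 to 21.5 TPM and was above the next gene in the order, Jag1, within each of the 6 libraries. Jag1, Notch1, Jag2 and Notch2 had means of 13.0, 12.9, 12.8 and 12.3 TPM over the 6 libraries and did not differ beyond their spread. Below them came Hey1 at 9.44 ± 2.24, Dll4 at 7.17 ± 1.63, Notch4 at 6.42 ± 1.51 and Dll1 at 3.40 ± 0.975 TPM (mean and SD over 6 libraries), and the ranges of neighbours in this order overlapped.

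Pgr, the gene that forced Notch1 activity is known to silence, was at 144, 245 and 177 CPM in the control libraries and 176, 178 and 159.5 CPM in the cKO ones. Its log2 fold change was -0.14 ± 0.18 (SE; edgeR quasi-likelihood adjusted p = 0.865). Control 2, where Notch1, Notch3, Jag1, Jag2 and Dll4 were each at their highest of the 6 libraries, was also the highest for Pgr. cKO library 1 was the lowest of 6 for Notch1, Notch4, Jag1, Jag2, Dll4 and Hes1.

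Transcript lengths in the tables are weighted by the isoform mix that was estimated in each library, so they can shift when the mix does. Notch4 was at 4519 bases in control 2 and 4771 in cKO library 2, and at 5036 to 5551 bases in the other 4 libraries. Jag2 was longest in the same 2 libraries, at 3900 and 4109 bases against 3391 to 3632. For Jag1 the groups did not overlap, with 4955 to 5000 bases in controls and 5095 to 5340 bases in cKO libraries. For Notch3 they did not overlap either, at 7702 to 8016 bases in controls and 7575 to 7676 bases in cKO libraries. Dll1 had the widest range for its length, 1969 to 2941 bases, with overlapping groups, and Dll4 was at 3747 bases in every library. No test was made of these lengths, and lengths did not overlap between the groups for 2 of the 10 members and for 10.3% of all tested genes.

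The other pathway genes were taken from a fixed list of 48, of which 44 were tested and Dll3, Dlk2, Hes5 and Hes7 were not, with at most 6 counts in any library. None passed an adjusted p of 0.05. Of the 44, 26 had a log2 fold change above 0 and 18 below, with a median of 0.04. At an unadjusted p under 0.05 there were 4 higher and 1 lower, and 6 had groups that did not overlap with cKO higher and 2 with cKO lower. Across all tested genes, 4.48% were higher and 1.98% lower at that p, and groups did not overlap in 6.93% with cKO higher and 5.78% with cKO lower. Of the 6 genes with cKO entirely higher, 5 were in the longest quintile by length, where 16.1% of all genes had cKO entirely higher.

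The nuclear complex that carries the signal to DNA held 5 of those 6, in a list of 10 tested genes. Groups did not overlap with cKO higher in 6.93% of all tested genes and in 16.1% of the longest quintile. That quintile held 6 of the 10 genes and 4 of the 5. Of the 10, 8 had log2 fold changes above 0 and 2 below. Their median was 0.17, and 0.07 after removal of the length trend. The Mastermind coactivator Maml2 was at 28.8, 26.4 and 30.6 CPM in the control libraries and 41.2, 35.7 and 32.9 CPM in the cKO ones. Maml3 was at 10.5, 11.2 and 11.9 CPM in the control libraries and 13.5, 14.3 and 14.6 CPM in the cKO ones. Spen, a corepressor that binds RBPJ, was at 57.0, 78.7 and 66.7 CPM in the control libraries and 83.9, 84.8 and 87.2 CPM in the cKO ones. The log2 fold changes of these 3 were 0.36 ± 0.12, 0.33 ± 0.13 and 0.34 ± 0.12 (SE), and each had an edgeR quasi-likelihood adjusted p of 0.747. After removal of the length trend they were 0.21, 0.16 and 0.14, and no pathway gene had an unadjusted p under 0.05. Maml1, named after its value was seen, also had groups that did not overlap, at 0.18 ± 0.09 (SE). Rbpj itself, also named after its value was seen, was at 205 ± 12.7 CPM in the control libraries and 212 ± 12.7 CPM in the cKO ones (n = 3 each, SD).

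**Figure D5:**
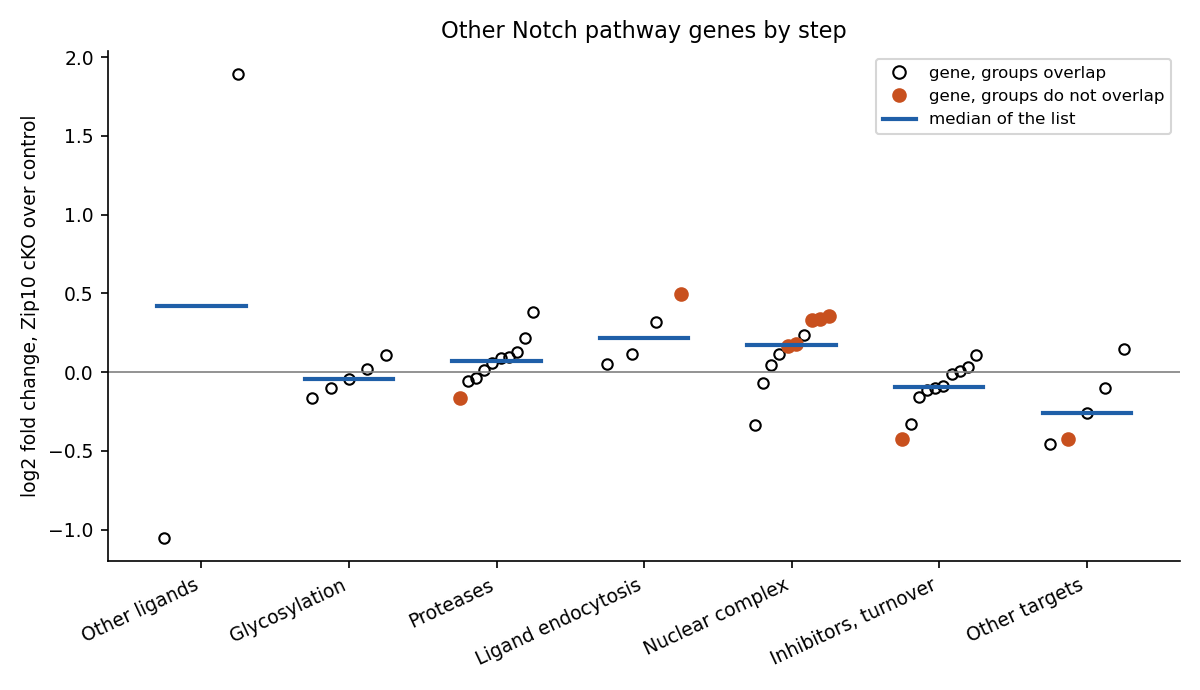
Log2 fold change of cKO over control for the 44 other pathway genes tested, grouped by step, with filled orange points where the groups did not overlap and a blue line at the median of each list (Dtx1 and Nrarp stand in 2 lists). The nuclear complex holds 5 filled points above 0 among its 10 genes, where 6.93% of all tested genes had cKO entirely higher. No gene passed an adjusted p of 0.05.

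At the step where the signal-sending cell takes up its ligand, all 4 tested ubiquitin ligases had log2 fold changes above 0. After removal of the length trend these were 0.37 for Neurl1b, 0.26 for Neurl1a, 0.06 for Mib2 and -0.02 for Mib1. Neurl1b was at 16.7, 18.6 and 28.1 CPM in the control libraries and 28.4, 32.3 and 28.8 CPM in the cKO ones, so control 3 came close to the cKO libraries. Its log2 fold change was 0.50 ± 0.19 (SE), against 0.32 ± 0.17 for Neurl1a and 0.12 ± 0.10 for Mib1. It was 0.34 without control 1, 0.41 without control 2 and 0.75 without control 3.

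Among the 10 proteases, which cut the receptor, 7 were above 0 and 3 below, with a median of 0.07. Psenen, a subunit of gamma-secretase, gave -0.16 ± 0.09 with cKO libraries (45.4 to 47.5 CPM) entirely below controls (48.8 to 55.0 CPM). Furin, which cuts the receptor as it matures, gave 0.13 ± 0.09, both as log2 fold change with SE. The 5 genes that add sugars to the receptor stayed between -0.17 and 0.11, with Mfng at -0.17 ± 0.13, Rfng at -0.10 ± 0.09 and Lfng, a fringe enzyme like both, at 0.11 ± 0.16 (-0.01 without control 2).

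The inhibitor and turnover list had 7 of 10 genes below 0 and a median of -0.09. Dtx1, a cytoplasmic modulator that Notch also induces, was at 20.5, 22.2 and 18.4 CPM in the control libraries and 10.4, 17.7 and 17.4 CPM in the cKO ones, with no overlap and the lowest value in cKO library 1. Its log2 fold change was -0.42 ± 0.21 (SE; edgeR quasi-likelihood adjusted p = 0.747), and -0.22 without cKO library 1. Egfl7, a secreted endothelial protein that can bind Notch and is also on the endothelial marker list, gave -0.33 ± 0.14, and Itch, a ubiquitin ligase, 0.11 ± 0.09. In the list of other targets, 4 of 5 tested genes were below 0, with Hey2 of arterial endothelium at -0.46 ± 0.25 (-0.20 without control 2) and Hes6, a relative of Hes1, at -0.26 ± 0.15. Dner, a neural ligand, was at 8.37 CPM in cKO library 1 and at 0.745 to 1.04 CPM in the other 5 libraries, and Dlk1 was at 1.24 to 10.5 CPM with overlapping groups.

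Across the 6 libraries, each member's centred log2 CPM profile was set beside those of 117 genes of the other fixed lists, and the closest was named by root mean square difference. Notch4 was nearest to Unc5b of the arterial list (0.05 on the log2 scale), Jag2 to the target Nrarp (0.06), Notch3 to the mural receptor gene Pdgfrb (0.06), and both Notch1 (0.07) and Jag1 (0.11) to the ubiquitin ligase Dtx4. Hes1 was nearest to Gja4 of arteries (0.07), Notch2 to Maml3 (0.09), Dll4 to the endothelial Esam (0.14), Hey1 to the stromal Pdgfra (0.18) and Dll1 to Hoxa11 (0.31). These differences compare with a spread of the members themselves (SD over the libraries) of 0.16 to 0.38. For Dll1 (0.31 against its own spread of 0.38) and Hey1 (0.18 against 0.24) even the nearest gene was a poor match. Notch4 was closer to its nearest gene, at 0.05 against 0.20. All these differences rest on 6 libraries that share both groups, and the order is a description.

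The marker lists show what else differed between the libraries beside the Notch genes. No marker passed the test. All 10 smooth muscle markers had log2 fold changes above 0 with a median of 0.53; those with the smallest p were Myh11 at 0.86 ± 0.23 and Synpo2 at 0.51 ± 0.15. All 10 leukocyte markers were above 0 as well, with a median of 0.51, and those with the smallest p were Mrc1 at 0.81 ± 0.20 and Ptprc at 0.53 ± 0.18. Leukocyte genes summed to 415 to 522 TPM in controls and to 986, 490 and 606 TPM in cKO libraries 1 to 3. These groups overlapped, with the highest sum in cKO library 1. Stromal markers were above 0 for 7 of 10 and below for 3, with a median of 0.25; Lum was at 0.49 ± 0.13 and Col3a1 at 0.49 ± 0.14, while Hand2, which is on this list too, was entirely below controls. Epithelial markers were below 0 for 8 of 10, with a median of -0.29, with Cldn3 at -0.57 ± 0.22 and Epcam at -0.33 ± 0.14. The mural markers Cspg4 and Abcc9 gave 0.44 ± 0.13 and 0.47 ± 0.15 beside a list median of 0.10 (6 of 8 above 0), Emcn of endothelium gave -0.36 ± 0.12, Sox17 of arteries -0.36 ± 0.18, and Hand2 and Hoxa11 of the uterine list -0.26 ± 0.09 and -0.26 ± 0.12. That list of 6 had 4 genes below 0 and 2 above, with a median of -0.15. The arterial list of 6 also had 4 below 0 and 2 above, with a median of -0.15 and a highest value of 0.07. Its summed TPM overlapped between groups, at 188 to 247 in controls and 164 to 212 in cKO libraries. Red blood cell genes summed to 357 to 629 TPM in controls and 637 to 779 TPM in cKO libraries, with Hbb-bt at 0.47 ± 0.26 and Hba-a2 at 0.38 ± 0.22 (log2 fold change and SE throughout). No marker gene was at 0 in any library, and the part of these lists in the Notch values was not tested.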

How the data were processed

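Uterine poly(A) RNA was sequenced in 6 libraries, 3 per group by their titles. Per the submitters' processing notes, fastp 0.23.2, STAR 2.7.10a, RSEM 1.3.3 and edgeR 3.38.4 in R 4.2.1 were used with GRCm39; no annotation release or strand setting is given in these sources. The authors deposited RSEM expected counts, with reads shared by genes split between them, and TPM, per the file headers. Of 56748 identifiers, 91.8% matched a GENCODE M21 symbol.

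Expected counts were rounded, filtered by filterByExpr (minimum count 10, total 15), scaled by TMM and tested by edgeR 4.0.16's quasi-likelihood test (R 4.3.3), with Benjamini-Hochberg adjustment over 16737 genes and a two-sided threshold of 0.05. SE came from the F statistic. Intervals cover 95%. Alternatives used DESeq2 1.42.0, limma 3.58.1 (voom, and log2 TPM with pseudocounts of 1 and 0.1), other scalings and filters, a likelihood ratio test, a replicate block, a loess length trend (span 0.5) and each library left out. The script was tested on simulated data. Library pairs differed beyond sampling noise (chi-square per degree of freedom at least 14.2).

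The members and lists were chosen with earlier results of these data known. Named genes were the members, Pgr, Slc39a10, up to 3 genes of each pathway list and 2 of each marker list with the smallest p, and the closest profile to each member. Other named genes were chosen after their values were seen. Some genes of the pathway lists are not reported here by name. Figures were drawn with matplotlib 3.10.9.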

Additional observations from a re-analysis of the deposited data

How the results depend on the processing

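Over all genes, 0 passed in the main test, with 1081 at an unadjusted p under 0.05, and 37 passed in DESeq2, which was run on all 28980 genes with a count (34 of the 37 were among the 16737 of the main test), 31 in edgeR's likelihood ratio test, 15 with no filter on low counts and 2 without cKO library 1, which gives 0 to 2 over the 6 libraries left out. No Notch member passed in any of the 18 alternatives, and the lowest adjusted p was 0.474, for Notch2. Notch2, Jag1, Dll1, Dll4, Hes1 and Hey1 kept their direction in all 18. On log2 TPM with pseudocounts of 1 and 0.1 the log2 fold change turned to 0.0022 and 0.0018 for Notch1, to 0.087 and 0.093 for Notch3 and to 0.036 and 0.043 for Notch4. The median of all genes was 0.051 and 0.060 with these pseudocounts, and -0.002 in the main test. With each library left out, the values ran from -0.144 to 0.084 for Notch1, from -0.149 to 0.136 for Notch3, from -0.218 to 0.063 for Notch4, from -0.206 to 0.029 for Jag2, from 0.28 to 0.39 for Notch2 and from -0.239 to -0.044 for Hes1; the cause of these turns was not tested. Hey1 reached an unadjusted p under 0.05 in 1 alternative, without cKO library 2.

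For the other pathway genes, the alternatives were chosen after the data were seen. The 4 genes higher at an unadjusted p under 0.05 became 0 with the length trend removed and 1 to 4 with each library left out: 1 without control 1, 2 without control 2 and 2 without control 3. With the replicate number as a block there were 3. The 1 gene lower at that p became 0 with the length trend removed, 0 to 3 with each library left out and 5 with the block. The block called 0 genes and 0 members, with 1354 genes at an unadjusted p under 0.05, and Notch2 stood at 0.33. The labels name no pairing, so the numbers were not taken to pair the samples. Same-numbered libraries deviated together with correlations of 0.09, 0.25 and 0.18. Of the 6 libraries, 5 correlated best with their own number, a hint from the data and not from the design. Depth limits Dll1 most, at 78 to 195 counts per library.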
